A study of Mus musculus with 84 samples.

Results

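Transcripts of 10 genes of microglia, the resident macrophages of the central nervous system, and of infiltrating monocytes and macrophages were followed in RNA-seq libraries of sorted mouse astrocytes. The 10 genes were listed by name as known markers of these cells, with earlier results of these data known. All 10 were among the 48526 genes counted in the disease experiment and among the 25773 genes counted in an experiment on astrocyte subtypes of naive mice. They were read as 3 classes. P2ry12, Tmem119 and Cx3cr1 mark homeostatic microglia. Csf1r, Aif1 and Itgam are shared by microglia and other myeloid cells. Lyz2, Ccr2, Fcgr2b and Cd68 are high in monocytes or macrophages.

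The disease experiment held 66 libraries of female C57BL/6J mice, either unimmunized controls (C) or mice with experimental autoimmune encephalomyelitis (EAE). EAE was induced at 10 weeks of age with a myelin oligodendrocyte glycoprotein peptide in complete Freund's adjuvant and pertussis toxin, which the controls did not receive. Stages were score 1 (E1, limp tail), score 4 (E4, complete paralysis of the hind legs) and chronic disease (Ech). Astrocytes were sorted on ACSA-2 (ATP1B2), and divided by the glutamate transporter GLAST, into hindbrain GLASTneg, hindbrain GLASTpos and spinal cord GLASTneg cells, where hindbrain is cerebellum with brain stem. The sample titles mark these with A or AG, which were read as GLASTneg and GLASTpos from the study's methods. C, E1, E4 and Ech had 5, 6, 6 and 6 libraries in hindbrain GLASTneg, 5, 6, 6 and 4 in hindbrain GLASTpos, and 5, 5, 6 and 6 in spinal cord GLASTneg cells, each from up to 2 pooled mice. The subtype experiment held 15 libraries of isolated astrocytes of adult FVB/N mice, 3 in each of 5 groups. It also held 3 libraries of cultured neonatal C57BL/6J astrocytes. These cells stayed in the flask after L929 cell-conditioned medium had been added and microglia had been shaken off.

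Cells positive for CD11B or CD45 were gated out of every sort. CD11B is the product of Itgam, and CD45, the product of Ptprc, is on the surface of all nucleated blood cells and, at a low level, of microglia. The study's antibody block before staining was directed at CD16/CD32, and CD32 is the product of Fcgr2b. The values of the sorted libraries are therefore transcripts that remained in a fraction from which myeloid cells were to be removed. The study's methods describe no sort of the cultured astrocytes, so this gate does not apply to them.

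Microglia settle in the brain before birth and renew themselves there. In the healthy parenchyma they carry P2RY12, TMEM119 and the fractalkine receptor CX3CR1. In EAE, monocytes enter the inflamed cord and hindbrain along the chemokine receptor CCR2 and become macrophages, which hold lysozyme M and CD68, while activated microglia lose much of their P2RY12 and TMEM119.

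Libraries were made from the 3′ ends of mRNA, so that a transcript gives reads in proportion to its copies and not to its length, and values are given in CPM, counts per 1000000 counts of TMM-scaled library size. The disease libraries held 1313682 to 4895220 counts, and the detection floor of 3 counts was 0.634 to 2.44 CPM. The isolated libraries of the subtype experiment were shallower, with 416768 to 1269316 counts and a floor of 2.44 to 6.99 CPM. The summed CPM of 9 astrocyte markers was 21161 to 27614 over the hindbrain groups. In the spinal cord it was 16453 in controls, 9768 at E1, 3129 at E4 and 4914 in chronic disease, while 7 oligodendrocyte markers summed to 20550, 35815, 45320 and 28272 CPM. 1 library stood apart for the genes described here, replicate 2 of the E4 spinal cord group, and member calls and class sums that rest on it are also given without it.

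Among the monocyte and macrophage members, Fcgr2b, an inhibitory IgG receptor, and Lyz2, lysozyme M, rose in EAE in each of the 3 populations, and Ccr2, the monocyte chemokine receptor, rose in hindbrain GLASTpos and spinal cord cells. The spinal cord call of Ccr2 at E4 was lost without replicate 2, and that at E1 without any 1 of 7 libraries. Its E1 call in hindbrain GLASTpos cells was lost without E1 replicate 4. In hindbrain GLASTneg cells at E4 the mean of Lyz2 was 44.4 times and that of Fcgr2b 19.2 times the control mean. The homeostatic microglial transcript P2ry12 was called in no population at any stage, with log2 fold changes from -0.23 to 0.92. Of the other homeostatic members, edgeR did not call Tmem119 in EAE. It called Cx3cr1 in spinal cord at E4 alone (3.77 ± 0.85, edgeR adjusted p = 0.00041), a call lost without replicate 2. Cd68, a monocyte and macrophage member, was not called in EAE by edgeR either. DESeq2 called 8 members in spinal cord at E4, where edgeR called 7, so at least 1 member that edgeR did not call was called by DESeq2. In bulk libraries fewer cells of a type and less RNA per cell cannot be told apart. A gene was called when the edgeR quasi-likelihood test gave a Benjamini-Hochberg adjusted p under 0.05, over all 23324 genes tested, with a log2 fold change beyond 1 in size.

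In hindbrain GLASTneg cells, 1 member at E1, 2 at E4 and 0 in chronic disease were called higher than in controls, where 0.635%, 0.707% and 0.189% of all genes tested were. Of the 10 members, 4 had an unadjusted p under 0.05 in chronic disease, and DESeq2 called 2 there. In hindbrain GLASTpos cells 3, 4 and 1 members were called higher, against 1.27%, 1.66% and 1.21% of all genes. In spinal cord GLASTneg cells 3, 7 and 2 were, against 2.5%, 6.8% and 5.16%. Without replicate 2 of the E4 spinal cord group the 7 became 3, and the background there was 5.75%. 0 members were called lower than in controls in any of these 9 comparisons by edgeR or by DESeq2, and 0 at an unadjusted p under 0.05 by either. Of all genes, 0.00857%, 0.0214% and 0.00429% were called lower in hindbrain GLASTneg cells over the 3 stages, 0.214%, 0.369% and 0.0986% in hindbrain GLASTpos cells, and 3.68%, 11.1% and 9.57% in spinal cord.

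**Figure D1:**
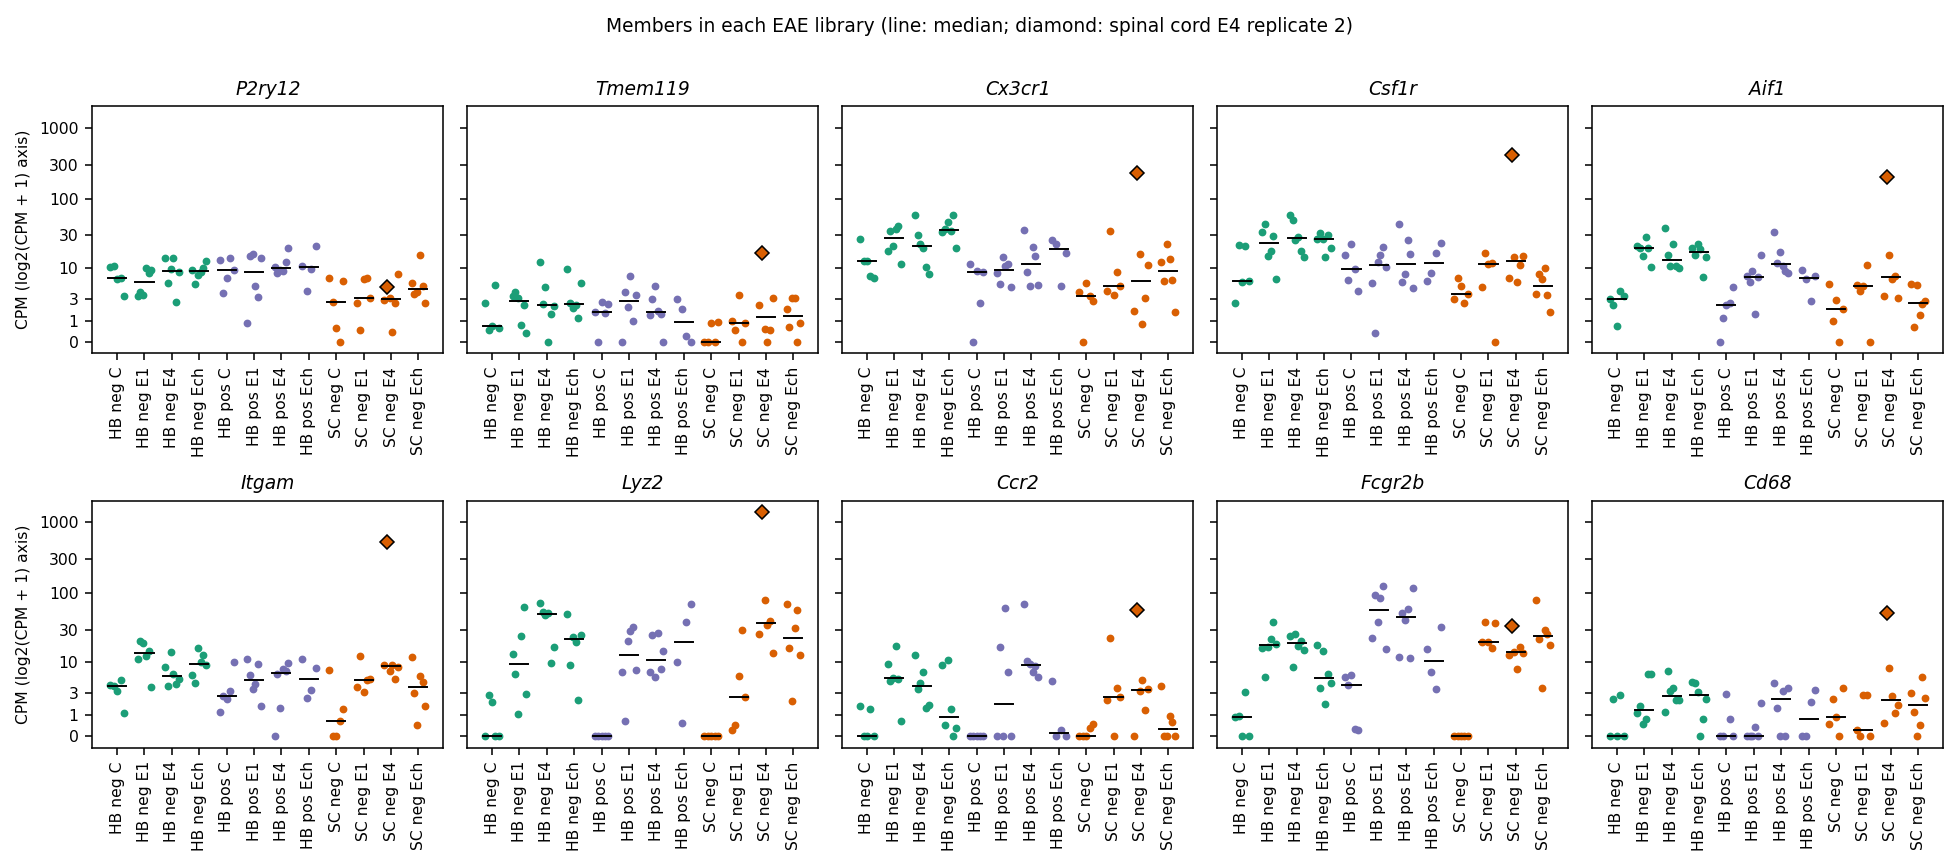
Level of each of the 10 genes in every library of the disease experiment, in CPM on a log2(CPM + 1) axis, by population and stage. Points are libraries, lines are group medians, and the diamond is replicate 2 of the E4 spinal cord group. P2ry12 lies at a like height in controls and EAE, whereas the Lyz2 points of all hindbrain GLASTpos and spinal cord controls are at 0.

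P2ry12 (chromosome 3, 59216272 to 59262871, minus strand, GRCm38) encodes the ADP receptor that microglial processes follow to sites of injury. In hindbrain GLASTneg controls the 5 libraries held 10.2, 10.6, 6.66, 6.93 and 3.37 CPM of P2ry12. The lowest, median and highest value was 3.38, 6.13 and 9.83 CPM at E1, 2.59, 8.97 and 14.1 CPM at E4, and 5.48, 8.84 and 12.5 CPM in chronic disease. These groups overlapped at every stage.

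Hindbrain GLASTpos cells held P2ry12 at 13.1, 3.79, 6.85, 14 and 9.08 CPM in controls and at 0.846, 9.55 and 16.1 CPM (lowest, median, highest) at E1. The 6 libraries of E4 ran from 8.21 to 19.7 CPM with a median of 9.73, and the 4 of chronic disease held 10.7, 4.14, 9.40 and 20.9 CPM. Here, too, every stage overlapped the controls. In spinal cord it was at 6.94, 2.62, 0.573, 0 and 6.08 CPM in controls, and its medians were 3.09 CPM at E1, 2.97 at E4 and 4.56 in chronic disease. The spinal cord medians thus lay below all hindbrain medians, and the stages overlapped. The log2 fold change of P2ry12 against controls was -0.23 ± 0.63, 0.25 ± 0.63 and 0.23 ± 0.63 (± SE here and below) over E1, E4 and Ech in hindbrain GLASTneg cells. It was -0.05 ± 0.61, 0.28 ± 0.62 and 0.27 ± 0.68 in hindbrain GLASTpos cells and 0.32 ± 0.68, 0.20 ± 0.66 and 0.92 ± 0.65 in spinal cord, where the edgeR adjusted p was 0.34 in chronic disease. With standard errors of this size, changes of about 1 on the log2 scale were not resolvable at this depth.

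Tmem119 (chromosome 5, 113793729 to 113800516, minus strand) encodes a membrane protein used to tell microglia from blood-derived macrophages. Its transcript was near the floor. The hindbrain control libraries held 0 to 5.19 CPM and the spinal cord control libraries 0, 0, 0.86, 0 and 0.936 CPM, 5 counts in all. At E4 in spinal cord 5 libraries held 0 to 3.11 CPM and replicate 2 held 16.6 CPM. The spinal cord E4 change of Tmem119, 3.26 ± 1.27, had an adjusted p of 0.055 in edgeR and was not called. It passed without control replicate 3 or without E4 replicate 3, 4 or 5, with adjusted p from 0.037 to 0.048.

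Cx3cr1 (chromosome 9, 119901616 to 120069879, minus strand) encodes the receptor for fractalkine, a ligand shown by neurons. Its values in the 5 hindbrain GLASTneg controls were 26.8, 12.4, 12.7, 7.27 and 6.74 CPM. The lowest, median and highest values there were 11.4, 28.1 and 40.3 CPM at E1, 8.02, 21.1 and 58.8 CPM at E4 and 19.8, 35.9 and 59.2 CPM in chronic disease. The medians of E1 and chronic disease lay above all 5 controls and that of E4 above 4, while the groups overlapped at each stage. None passed the test, and the change in chronic disease was 1.54 ± 0.75 with an edgeR adjusted p of 0.65.

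Cx3cr1 in hindbrain GLASTpos cells was at 11.4, 0, 8.81, 2.54 and 8.59 CPM in controls and between 5.15 and 35.4 CPM at E4, a change of 1.26 ± 0.76 with an edgeR adjusted p of 0.40. In spinal cord the controls held 3.97, 0, 5.73, 3.45 and 2.81 CPM. The 6 E4 libraries held 1.69, 234, 15.8, 0.778, 3.18 and 11.1 CPM. A single library thus set the mean of that group, 44.4 ± 92.9 CPM (SD, n = 6). The E4 change was 3.77 ± 0.85 with an edgeR adjusted p of 0.00041, and 1.04 ± 0.70 with an adjusted p of 0.29 without replicate 2.

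Csf1r (chromosome 18, 61100598 to 61132149, plus strand) encodes the receptor for the growth factors CSF1 and IL34, on which microglia and macrophages depend. It was at 2.55, 21.6, 5.99, 21.1 and 6.18 CPM in hindbrain GLASTneg controls and had medians of 23.8, 27.1 and 26.3 CPM over E1, E4 and Ech. The hindbrain GLASTpos controls held 15.5, 6.44, 22.2, 9.65 and 4.17 CPM, and the EAE groups had medians of 11.2, 12.1 and 12.4 CPM. Its values overlapped between stages in each hindbrain population, and it was not called there. In spinal cord controls Csf1r was at 2.97, 6.89, 5.16, 2.51 and 3.74 CPM and in E4 libraries at 6.77, 411, 14.3, 5.83, 10.9 and 15.1 CPM. Its E4 change was 4.15 ± 0.83, with an edgeR adjusted p of 5.8e-05, and 1.30 ± 0.64 with an adjusted p of 0.14 without replicate 2.

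Aif1 (chromosome 17, 35170991 to 35176068, minus strand) encodes IBA1, an actin-binding protein by which microglia and macrophages are stained. It was low in every control, at 2.97, 2.30, 0.666, 4.16 and 3.37 CPM in hindbrain GLASTneg cells. It ran from 10.1 to 28.7 CPM at E1, from 9.80 to 38.8 CPM at E4 and from 7.22 to 22.2 CPM in chronic disease. No EAE library of this population fell into the control range, which held for every library of E1, E4 and Ech for 1.46%, 1.81% and 0.815% of all genes. The mean was 7.07, 6.71 and 6.07 times that of controls. The test nevertheless did not call Aif1 there, with log2 fold changes of 2.77 ± 0.78, 2.68 ± 0.78 and 2.55 and edgeR adjusted p of 0.083, 0.11 and 0.35.

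Aif1 in hindbrain GLASTpos cells was at 0, 1.14, 2.28, 2.54 and 4.91 CPM in controls and from 8.33 to 33.6 CPM at E4, where no library overlapped (1.09% of all genes). The E4 change, 2.72 ± 0.77, had an edgeR adjusted p of 0.039, and was lost without control replicate 1, 2, 3 or 4 or E4 replicate 1 or 3, with adjusted p from 0.052 to 0.13. In spinal cord the controls held 5.45, 0.984, 2.87, 0 and 1.87 CPM of Aif1 and the E4 libraries 3.38, 201, 15.6, 6.61, 7.51 and 3.11 CPM. The E4 change in spinal cord was 4.17 ± 0.82 with an edgeR adjusted p of 5.1e-05, and 1.76 ± 0.67 with an adjusted p of 0.051 without replicate 2.

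Itgam (chromosome 7, 128062640 to 128118491, plus strand) encodes the CD11B integrin chain, the antigen of the myeloid gate. In hindbrain GLASTneg controls it was at 4.25, 4.14, 3.33, 5.19 and 1.12 CPM, and its E1 values ran from 3.91 to 20.4 CPM with a median of 13.5. The E1 change of 1.87 ± 0.86 was not called (edgeR adjusted p = 0.49). Itgam in hindbrain GLASTpos cells ran from 1.23 to 10.1 CPM in controls and from 0 to 11.1 CPM in EAE, and the groups overlapped at every stage. In spinal cord controls it was at 7.44, 0, 0, 0.628 and 1.40 CPM, and all 6 E4 libraries held between 5.46 and 519.8 CPM with a median of 8.69. The E4 change in spinal cord was 5.75 ± 1.00 with an edgeR adjusted p of 4.6e-06. Without replicate 2 it was still called, at 2.17 ± 0.74 with an adjusted p of 0.027. At E1 and in chronic disease Itgam was called in spinal cord only when control replicate 1, the library at 7.44 CPM, was left out, at 3.62 and 3.25 with edgeR adjusted p of 0.045 and 0.037. Of the 50-base windows at the ends of Itgam transcripts, 30.1% also occur in Gm49368, an overlapping gene on the same strand, so reads of both could be mixed or left uncounted.

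Promoters of the members were read from RefSeq (GRCm38.p6), 250 bases before to 50 after each start, for the 8 members in that table. They are shown for the 3 that hold GAGGAA or its reverse complement TTCCTC, the core bound by PU.1, the factor that myeloid cells need to form. The motif, in capitals, was found in the promoters of Itgam, Aif1 and Cd68, 3 of 8, and in 28.3% of 32851 promoters of the same length.
Itgam, chr7:128062390-128062689, plus strand: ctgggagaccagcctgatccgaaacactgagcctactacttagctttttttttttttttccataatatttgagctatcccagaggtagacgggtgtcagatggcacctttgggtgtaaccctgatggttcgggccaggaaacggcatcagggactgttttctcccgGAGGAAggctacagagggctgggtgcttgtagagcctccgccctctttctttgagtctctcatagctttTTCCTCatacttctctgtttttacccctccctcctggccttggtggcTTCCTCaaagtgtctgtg
Aif1, chr17:35176003-35176302, minus strand: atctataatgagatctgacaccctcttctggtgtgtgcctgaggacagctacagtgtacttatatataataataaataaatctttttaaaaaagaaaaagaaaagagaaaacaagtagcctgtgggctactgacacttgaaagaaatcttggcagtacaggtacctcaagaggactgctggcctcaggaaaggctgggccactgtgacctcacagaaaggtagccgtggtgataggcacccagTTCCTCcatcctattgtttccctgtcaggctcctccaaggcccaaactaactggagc
Cd68, chr11:69666121-69666420, minus strand: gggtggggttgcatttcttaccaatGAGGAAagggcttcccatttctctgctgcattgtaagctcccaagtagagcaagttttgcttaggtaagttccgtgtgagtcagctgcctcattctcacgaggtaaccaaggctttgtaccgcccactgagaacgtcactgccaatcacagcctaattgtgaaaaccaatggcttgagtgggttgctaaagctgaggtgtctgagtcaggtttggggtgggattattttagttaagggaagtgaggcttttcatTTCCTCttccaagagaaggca
The Itgam promoter held 3 copies, that of Cd68 2 and that of Aif1 1. The C/EBP form TTGCNNAA, searched on both strands, was in 2 of 8 member promoters, those of P2ry12 and Cd68, and in 10.8% of all promoters. The STAT form TTCNNNGAA was in 0 of 8 and in 8.3% of all. The promoters of Lyz2, Ccr2 and Fcgr2b, the members called most often against controls, held no GAGGAA in this window.

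Lyz2 (chromosome 10, 117277331 to 117282321, minus strand) encodes lysozyme M, a bacteriolytic enzyme of monocytes, macrophages and neutrophils. All 5 hindbrain GLASTpos and all 5 spinal cord controls held 0 counts of it. The hindbrain GLASTneg controls held 0, 2.76, 2.00, 0 and 0 CPM. Lyz2 was therefore at or near the floor in every control group.

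In hindbrain GLASTneg cells Lyz2 was at 1.03, 9.84 and 63.2 CPM (lowest, median, highest) at E1, at 9.61, 50.3 and 72.9 CPM at E4 and at 2.28, 22 and 50.3 CPM in chronic disease. The mean rose 44.4-fold at E4, a log2 fold change of 5.54 ± 1.30 with an edgeR adjusted p of 0.014. At E1 and in chronic disease the means were 19.5 and 22.9 times that of controls, with adjusted p of 0.12 and 0.21. Leaving out control replicate 1, 4 or 5 ended the E4 call, at 5.19, 5.13 and 5.26 with adjusted p of 0.066, 0.072 and 0.066.

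Hindbrain GLASTpos cells held Lyz2 at 0.656, 14.1 and 33.1 CPM at E1 and at 5.89, 11.2 and 27.2 CPM at E4. The 4 libraries of chronic disease held 9.96, 0.552, 39.2 and 70.4 CPM. Against the floor of 3 counts per control library the mean was at least 13.3-fold higher at E1, at least 11.9-fold higher at E4 and at least 24.5-fold higher in chronic disease. All 3 stages passed, with edgeR adjusted p of 0.0065, 0.0065 and 0.0029, and no library of any stage overlapped the controls (0.609%, 1.09% and 2.25% of all genes). Only 5 of 6 libraries at E1 and 3 of 4 in chronic disease were over the floor, so the separation there rests partly on counts under it.

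In spinal cord the E1 libraries held 0.249, 0.456, 5.93, 30.1 and 2.53 CPM of Lyz2. At E4 they held 26.5, 1382, 79.4, 35.0, 39.8 and 13.8 CPM, and in chronic disease 69.8, 16.2, 2.11, 31.3, 57.9 and 12.9 CPM. Every EAE library was above every control, as for 1.96%, 5.35% and 5.11% of all genes at E1, E4 and Ech. At E1, however, only 3 of the 5 libraries were over the floor of 3 counts, so the separation there rests partly on counts under it. The mean was at least 5.29-fold higher at E1, at least 177-fold higher at E4 (at least 26.2-fold without replicate 2) and at least 21.3-fold higher in chronic disease, with edgeR adjusted p of 0.018, 1.5e-07 and 0.00011. The E1 call rested on replicate 4, without which the adjusted p was 0.17. In the libraries whose sheet number, the last number of the sample label, was 57 or more, as in all spinal cord controls, Lyz2 was called at E1 and in chronic disease, with edgeR adjusted p of 0.0071 at E1 and 0.00012 in chronic disease. At E4 this left 1 library, whose spread would be taken from the other groups, and no call is drawn from it. The lysozyme paralogue Lyz1 shares 16.9% of the end windows of Lyz2 and had at most 7 counts in any disease group.

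Ccr2 (chromosome 9, 124101950 to 124113557, plus strand) encodes the receptor by which inflammatory monocytes leave the marrow and enter tissue. It held 0 counts in all hindbrain GLASTpos controls, 1 count in each of 2 spinal cord controls and 1.70, 0, 0, 1.39 and 0 CPM in hindbrain GLASTneg controls. Hindbrain GLASTpos libraries held 0, 17, 0, 61.7, 7.06 and 0 CPM at E1 and 70.2, 10.2, 9.20, 7.01, 8.64 and 5.86 CPM at E4. In chronic disease they held 4.98, 0, 0.229 and 0 CPM. Ccr2 was thus seen in 3 of 6 libraries at E1, in all 6 at E4, and over the floor in 1 of 4 in chronic disease.

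Against the floor, Ccr2 was at least 11.7-fold higher at E1 and at least 15.1-fold higher at E4 in hindbrain GLASTpos cells, with edgeR adjusted p of 0.0076 and 0.0036. It was not called in chronic disease (edgeR adjusted p = 0.21). Without E1 replicate 4 the adjusted p of the E1 comparison was 0.054. In hindbrain GLASTneg cells Ccr2 had medians of 5.47, 4.07 and 0.915 CPM over the 3 stages and was not called, with 3.32 ± 1.40 and an edgeR adjusted p of 0.47 at E1. Its spread within each stage was as large as its mean or nearly so.

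In spinal cord Ccr2 was at 2.24, 22.8, 0, 3.77 and 2.53 CPM at E1 and at 0, 58.4, 3.37, 5.06, 1.36 and 3.55 CPM at E4. In chronic disease 3 of 6 libraries held 0 and the highest held 4.00 CPM. The ratio of pooled counts to controls was 36 at E1 (95% exact counting interval 9.65 to 303), 69.1 at E4 (18.8 to 575) and 6.80 in chronic disease (1.66 to 59.8), and these intervals cover counting error only. The edgeR adjusted p was 0.043 at E1 and 0.0045 at E4. The E1 call was lost without any 1 of 7 libraries, with adjusted p from 0.053 to 0.16, and the E4 call without replicate 2, where the ratio was 18.7 (4.85 to 160) and the adjusted p 0.074.

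Fcgr2b (chromosome 1, 170958617 to 170976547, minus strand) encodes the inhibitory IgG receptor FcγRIIB of macrophages, B cells and some endothelial cells. Like Lyz2, it was called in 7 of 9 comparisons with controls. In hindbrain GLASTneg controls it was at 0.85, 0.92, 0, 3.12 and 0 CPM. The lowest, median and highest values were 5.70, 18 and 38.3 CPM at E1, 8.40, 19.2 and 26.4 CPM at E4 and 1.88, 5.53 and 18.1 CPM in chronic disease. All E1 and E4 libraries were above all controls (1.46% and 1.81% of all genes), whereas chronic values reached into the control range. Its log2 fold changes were 4.10 ± 0.78, 4.00 ± 0.78 and 2.83 ± 0.79, with edgeR adjusted p of 0.00083, 0.00098 and 0.18.

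In hindbrain GLASTpos controls Fcgr2b was at 5.72, 4.17, 6.2, 0.254 and 0.245 CPM. It was at 16.0, 62.1 and 126 CPM at E1 and at 11.6, 46.6 and 118 CPM at E4, with no overlap with controls (0.609% and 1.09% of all genes). In chronic disease the 4 libraries held 15.7, 6.90, 3.67 and 32.6 CPM. The means were 19.2, 14.8 and 4.44 times that of controls, and the log2 fold changes 4.31 ± 0.71, 3.94 ± 0.70 and 2.20 ± 0.71, with edgeR adjusted p of 3.5e-05, 0.00012 and 0.094.

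In spinal cord Fcgr2b held 0 counts in each of the 5 controls, and 20.2, 38.3, 19.8, 16.1 and 37.7 CPM at E1. It was at 13.0, 33.7, 14.3, 7.78, 16.6 and 13.8 CPM at E4 and at 79, 22.3, 3.81, 30.0, 25.8 and 17.8 CPM in chronic disease. No EAE library overlapped a control, as for 1.96%, 5.35% and 5.11% of all genes at E1, E4 and Ech. The mean was at least 17.7-fold, at least 11.1-fold and at least 20.0-fold higher than in controls over E1, E4 and Ech, with edgeR adjusted p of 1e-07, 5.8e-08 and 2.9e-09. Without E4 replicate 2, at 33.7 CPM the highest of its group, the E4 mean was at least 8.79-fold higher. Among libraries with a sheet number of 57 or more it was called at E1 and in chronic disease (edgeR adjusted p = 8.2e-07), and E4 was left with 1 library.

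The ratio of Fcgr2b to Csf1r, the general receptor of the lineage, is given here as counts, with no test of its difference between stages. In hindbrain GLASTpos cells the summed counts of Fcgr2b and Csf1r were 46 and 178 in controls, 1195 and 206 at E1, 999 and 381 at E4 and 215 and 212 in chronic disease. In spinal cord they were 0 and 61, 396 and 120, 277 and 1079, and 644 and 113, and the E4 pair was 202 and 164 without replicate 2. In hindbrain GLASTneg cells they were 13 and 134 in controls, 331 and 340 at E1 and 133 and 390 in chronic disease, and their E4 means were 18.7 ± 6.5 and 32.4 ± 17.8 CPM (SD, n = 6). Of the other cells that express Fcgr2b, 4 B cell markers summed to a mean of at most 0.933 CPM in any disease group. Endothelial cells, by 5 markers, summed to 0.428, 3.91, 4.50 and 2.05 CPM in hindbrain GLASTpos cells over the 4 stages and to 0.562, 1.49, 4.95 and 0.993 CPM in spinal cord, and their part in Fcgr2b was not tested. The neighbouring receptor gene Fcgr3 shared end windows with 1.36% of those of Fcgr2b and was called in spinal cord at E4, at 6.75 ± 1.00 with an edgeR adjusted p of 1.2e-07, and in chronic disease with an adjusted p of 0.015.

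Cd68 (chromosome 11, 69664213 to 69666153, minus strand) encodes a lysosomal membrane protein of macrophages that microglia also carry. It stayed low. The medians of the 12 disease groups ran from 0 to 2.77 CPM, and outside E4 replicate 2 of the spinal cord no library exceeded 8.05 CPM. In that library Cd68 was at 53.0 CPM. Its E4 change in spinal cord was 2.90 ± 1.32, with an edgeR adjusted p of 0.10, and 0.96 ± 1.24 with an adjusted p of 0.67 without that library. By edgeR it was called at no stage in any population.

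**Figure D2:**
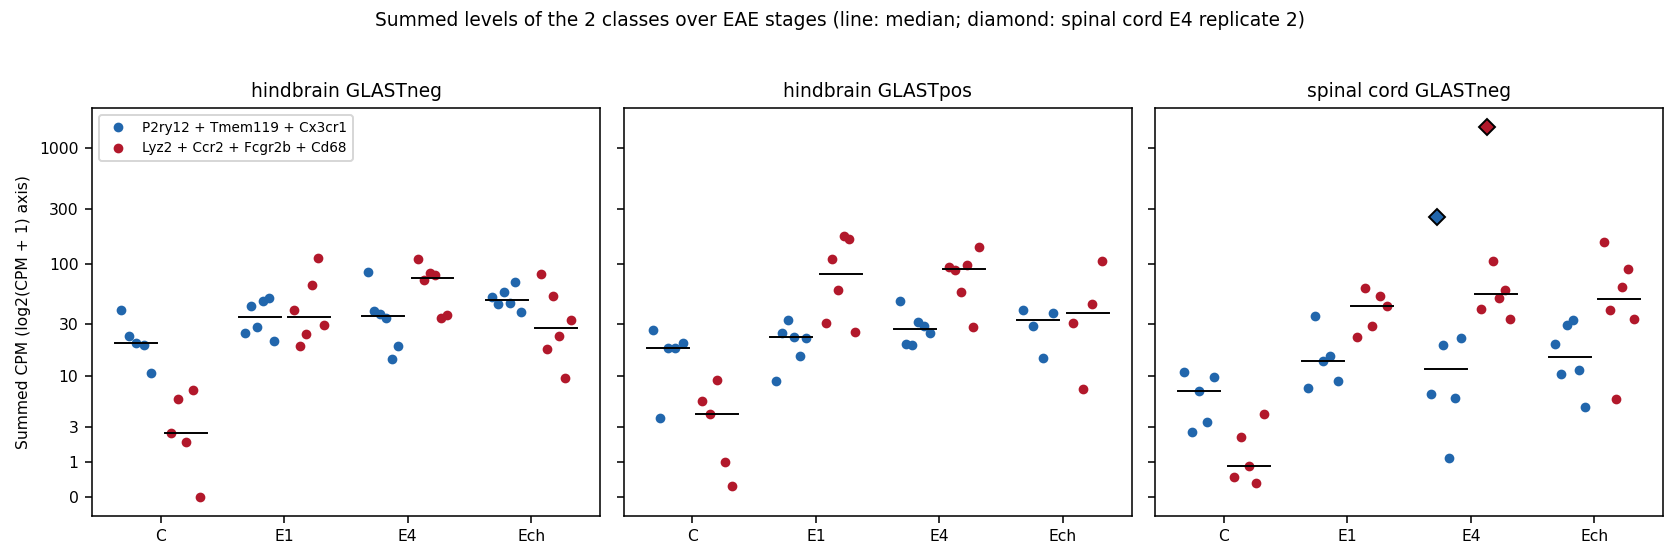
Summed CPM of the homeostatic members (P2ry12, Tmem119 and Cx3cr1) and of the monocyte and macrophage members (Lyz2, Ccr2, Fcgr2b and Cd68) by stage in the 3 populations, on a log2(CPM + 1) axis, 1 point per library. The homeostatic sum is the larger in nearly all controls, and the monocyte and macrophage sum in most E1 and E4 libraries.

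Summed by class, the homeostatic members stood at 22.6, 35.9, 38 and 51.2 CPM on average over C, E1, E4 and Ech in hindbrain GLASTneg cells. The monocyte and macrophage members stood at 3.56, 48.3, 69.5 and 36.3 CPM. For hindbrain GLASTpos cells the homeostatic sum was 17.3, 21.1, 28.5 and 30.0 CPM and the monocyte and macrophage sum 4.06, 94.8, 84.4 and 47.4 CPM. The means of both sums were above those of controls at each stage, by larger ratios for the second, and the sums were not tested.

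In spinal cord the homeostatic sum was 6.80, 16.2, 51.8 and 18 CPM over the 4 stages and the monocyte and macrophage sum 1.64, 41.7, 302 and 64.6 CPM. Without replicate 2 the E4 means were 11.1 and 57.5 CPM. The sum of the shared members was 8.38, 20.1, 210 and 13.1 CPM, and 25.6 CPM at E4 without replicate 2. That library thus carried most of the E4 mean in each class.

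The homeostatic share, the part of the 2 sums that was homeostatic, was 87.5% ± 11.1 (SD, n = 5) in hindbrain GLASTneg controls. It was 46.1% ± 13.7 at E1 (n = 6), 33.8% ± 5.22 at E4 (n = 6) and 61.8% ± 17.3 in chronic disease (n = 6). The controls ran from 72.7 to 100%, E4 from 29.8 to 43.4%, and chronic disease from 38.8 to 88.1%. E1 and E4 lay wholly below the controls, and chronic disease reached into both ranges.

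In hindbrain GLASTpos cells the share was 78% ± 21.1 in controls (n = 5), 23.9% ± 14.7 at E1 (n = 6), 27.8% ± 12.8 at E4 (n = 6) and 46.5% ± 26.3 in chronic disease (n = 4). The lowest control, 47.6%, lay just above the highest E1 library, 46.9%, and below the highest E4 library, 50.3%. In spinal cord it was 80% ± 17.9 (n = 5), 26.8% ± 7.65 (n = 5), 16.1% ± 12.9 (n = 6) and 28.9% ± 28 (n = 6). Replicate 2 at E4 had a share of 14.3% (95% Wilson interval 13.3 to 15.4, counting error only), within the 2.26 to 40.3% of the others. In chronic spinal cord 5 libraries held 11.1 to 34%, and replicate 3 held 83.2%, where Lyz2 was at 2.11 CPM. No test was made of this share. At E4 it depended on Lyz2 in hindbrain GLASTneg cells and spinal cord, where its mean was 54.8% and 37.5% without that gene. In hindbrain GLASTpos cells at E4 the share changed little without Lyz2. Fcgr2b was the larger part of the monocyte and macrophage sum there, with a mean of 49.1 of 84.4 CPM. The share without Fcgr2b was not computed.

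**Figure D3:**
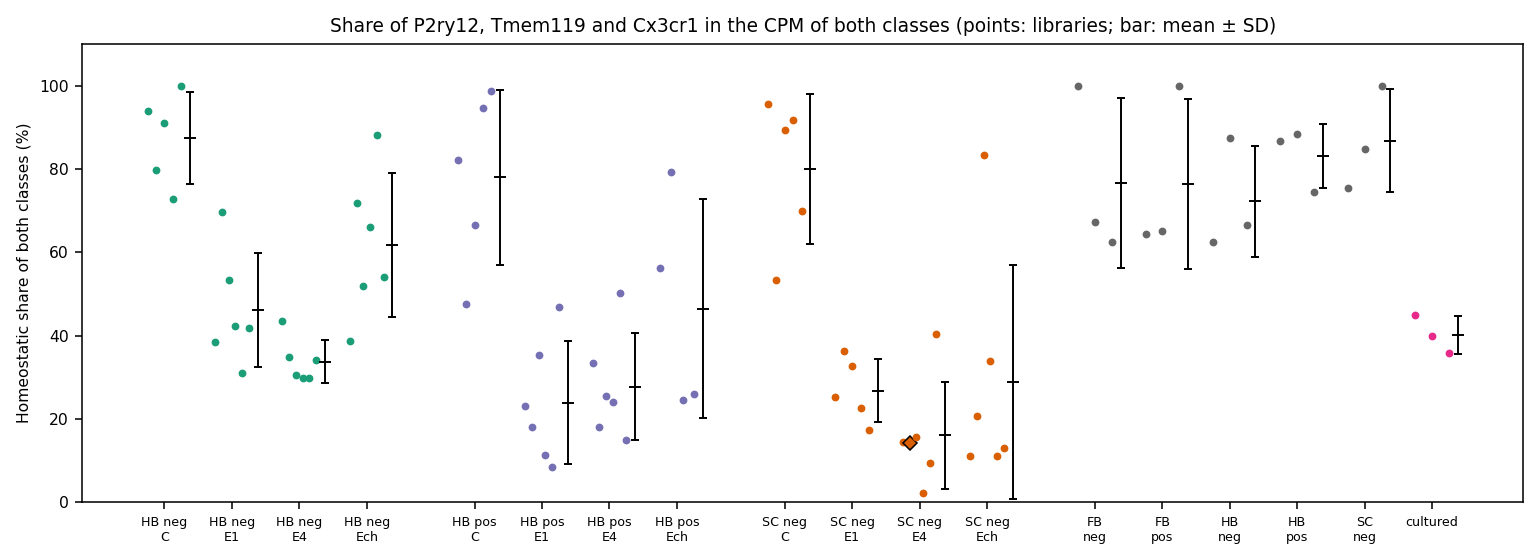
Share of homeostatic members in the summed CPM of homeostatic and of monocyte and macrophage members, in percent, per library, for the 12 disease and 6 subtype groups as labelled. Points are libraries and bars are means with SD. Control and isolated naive groups have means of 72.2% or more, and the means of the E1 and E4 groups are at most 46.1%.

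Between EAE stages, no member was called in either hindbrain population. E4 against E1 called 0 members in hindbrain GLASTneg cells (edgeR; 0 at an unadjusted p under 0.05, 0 with DESeq2; background 0% of genes) and 0 in hindbrain GLASTpos cells (0 unadjusted, 0 with DESeq2; 0.0214%). Chronic disease against E4 called 0 in hindbrain GLASTneg cells (1 unadjusted, 0 with DESeq2; 0.0857%) and 0 in hindbrain GLASTpos cells (2 unadjusted, 0 with DESeq2; 3.61%). The fall of the Ccr2 and Fcgr2b means in hindbrain GLASTpos cells, from 18.5 to 1.30 CPM and from 49.1 to 14.7 CPM, did not pass the test.

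In spinal cord, Csf1r, Aif1, Itgam and Lyz2 were called higher at E4 than at E1 (4 of 10 members; 0.832% of all genes). Their log2 fold changes were 3.12 ± 0.78, 2.95 ± 0.76, 3.97 ± 0.88 and 5.06 ± 1.07. The same 4 were called lower in chronic disease than at E4 (1.22% of all genes), at -3.80 ± 0.75, -3.68 ± 0.73, -4.33 ± 0.83 and -3.05 ± 0.88. The 2 comparisons share the E4 libraries. Without E4 replicate 2 both counts were 0, with backgrounds of 0.304% and 0.836%. Lyz2 was then at 2.32 against E1 with an edgeR adjusted p of 0.11, and Aif1 at 0.54 with an adjusted p of 0.77.

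**Figure D4:**
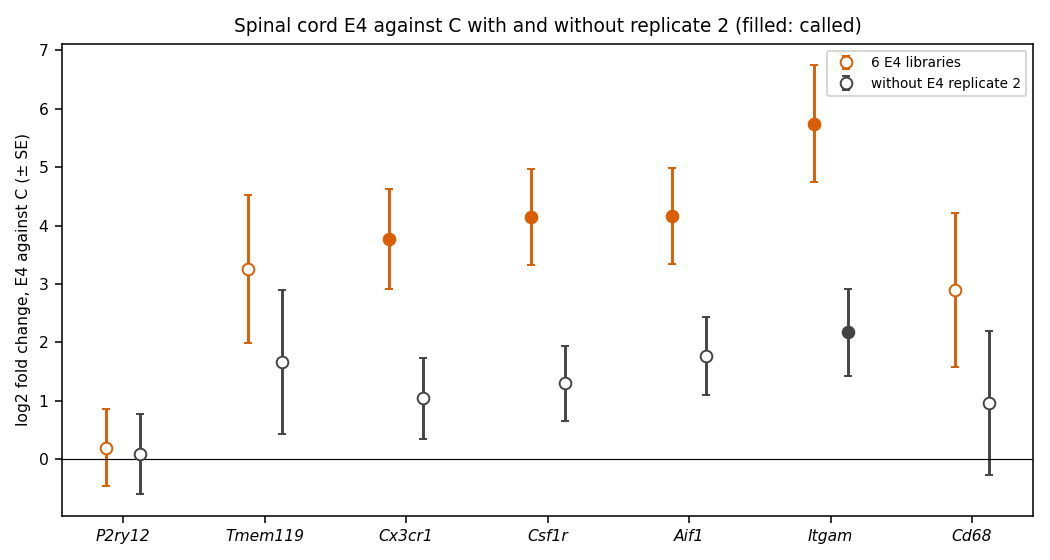
Log2 fold change of 7 members in spinal cord at E4 against controls, with and without E4 replicate 2. Points are edgeR estimates, bars their standard errors, and filled points were called. Itgam remains called without that library, and Cx3cr1, Csf1r and Aif1 do not.

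Replicate 2 of the E4 spinal cord group was also high in other microglial and leukocyte genes. Lists of other genes were summed in it and in the other 5 libraries. The other monocyte and macrophage genes summed to 2018 CPM against 59.1 to 111 CPM, pan-leukocyte genes to 1449 against 49.6 to 152, and neutrophil genes to 603 against 4.51 to 30.3. The other homeostatic microglial genes summed to 5262 against 881 to 1647 CPM and phagocyte activation genes to 4300 against 728 to 1001 CPM. T cell genes stood at 49.4 against 6.82 to 36.6 CPM, endothelial genes at 14.8 against 0 to 4.88 CPM, and B cell genes at 0. Its astrocyte markers, at 2492 CPM, lay within the 2344 to 3844 CPM of the others, and its oligodendrocyte markers, at 23752 CPM, below the 35521 to 67763 CPM of the others. Its P2ry12, at 4.94 CPM, lay within the 0.389 to 7.99 CPM of the others. Its part in the group means is given by the values without it above.

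The difference between populations of the changes against controls was called for 6 member responses. At E1 no difference of spinal cord from either hindbrain population was called for a member in edgeR (0 and 0, 1 and 1 at an unadjusted p under 0.05, 0 and 1 with DESeq2; 0.0686% and 0.617% of genes called higher). At E4 the Itgam response was larger in spinal cord than in hindbrain GLASTneg cells, by 4.81 ± 1.25 (edgeR adjusted p = 0.0062; 1 of 10 members, 1.92% of genes), and than in hindbrain GLASTpos cells, by 5.32 ± 1.24 (0.0013). Csf1r also had a larger E4 response in spinal cord than in hindbrain GLASTpos cells, by 3.56 ± 1.05 (0.014). Fcgr2b was called there too (0.046), so 3 of 10 members were called against 3.79% of genes. Its fitted difference of 4.67 ± 1.64 is taken against spinal cord controls without a count and shows no larger response, since the counts bound the spinal cord change only at 11.1-fold or more and the hindbrain GLASTpos mean was 14.8 times that of controls. The Fcgr2b call was lost in 14 of 22 fits without 1 library. Without E4 replicate 2 none of these passed, with Itgam at 1.24 and 1.75, Csf1r at 0.71 and Fcgr2b at 4.35 (adjusted p 0.56, 0.27, 0.79 and 0.067).

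In chronic disease the fitted Fcgr2b response was higher in spinal cord than in hindbrain GLASTneg cells, by 6.63 ± 1.71 (edgeR adjusted p = 0.0063; 1 of 10 members, 1.54% of genes), and than in hindbrain GLASTpos cells, by 7.26 ± 1.58 (0.00065; 1 of 10, 3.99%). These sizes are fitted against spinal cord controls without any Fcgr2b count and are no measure of a fold. The first was lost without hindbrain GLASTneg control replicate 4, at 5.52 with an adjusted p of 0.098. In controls Fcgr2b was itself lower in spinal cord than in hindbrain GLASTpos cells (edgeR adjusted p = 0.00065; 1 of 10 members, 4.78% of genes), where 3 of 5 hindbrain libraries were over the floor. No member was called between controls of spinal cord and hindbrain GLASTneg cells (0 called by edgeR, 2 at an unadjusted p under 0.05, 1 with DESeq2; 4.2% of genes) or of the hindbrain populations (0, 0 and 1; 10.5%). The difference between the responses of hindbrain GLASTpos and GLASTneg cells was called for 0 members at any stage in edgeR (1, 1 and 0 at an unadjusted p under 0.05; 0 with DESeq2), against 0.00857%, 0.00857% and 0.06% of genes. All hindbrain GLASTneg libraries had a sheet number under 57, and all hindbrain GLASTpos and spinal cord control libraries one of 57 or more. Where hindbrain GLASTneg controls are compared with other controls, population and sheet number therefore cannot be told apart. The tests of responses did not model the sheet number either. Titles of 64 of the 66 libraries carry a number shared with a library of another population at the same stage, which may mark the same animals, and the tests above did not model it. With that number as a block, a fit chosen after seeing the data, the Itgam differences at E4 were 1.34 and 2.20 (edgeR adjusted p = 0.61 and 0.20) and were not called. The calls for Csf1r at E4 (0.035) and for Fcgr2b at E4 over hindbrain GLASTpos and in chronic disease were made there as well. The block called Fcgr2b, Lyz2 or Csf1r in further comparisons: Fcgr2b in the E1 responses of spinal cord against both hindbrain populations, the E4 response against hindbrain GLASTneg and 2 more control comparisons, Lyz2 in 2 chronic responses and the hindbrain control comparison, and Csf1r between spinal cord and hindbrain GLASTpos controls.

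Other genes of the same cells were taken as lists. Of 15 other homeostatic microglial genes, 1, 4 and 1 were called higher over E1, E4 and Ech in hindbrain GLASTneg cells, 0, 1 and 0 in hindbrain GLASTpos cells and 3, 6 and 4 in spinal cord, where 4 were left at E4 without replicate 2. Their median log2 fold changes were 0.91, 0.63 and 1.32, then 0.84, 0.53 and 0.56, then 1.52, 2.44 (1.54 without replicate 2) and 0.69, where the median of all genes was 0.0. Those called higher were mostly C1qa, C1qb and C1qc, which encode the complement component C1q, and Ctss, a lysosomal protease, all of which macrophages also express. Sparc, which encodes an extracellular matrix protein, was called lower in spinal cord at E4 and in chronic disease (-1.43 ± 0.24 and -1.76 ± 0.24, edgeR adjusted p = 1.4e-06 and 1.1e-08), the former also without replicate 2. C1qb, for example, had a mean of 0.658 CPM in spinal cord controls, 7.96 at E1, 59.9 at E4 and 7.03 in chronic disease, with log2 fold changes of 3.54 ± 0.82, 6.43 ± 0.84 and 3.36 ± 0.81. The E4 mean and change of C1qb include replicate 2.

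Of 19 other monocyte and macrophage genes, 1, 0 and 0 were called higher in hindbrain GLASTneg, 2, 2 and 1 in hindbrain GLASTpos and 3, 15 and 4 in spinal cord cells. Plac8, a gene of inflammatory monocytes, was called at E1 in all 3 populations. It had 0 counts in all controls and means of 4.83, 21.9 and 9.64 CPM at E1 in hindbrain GLASTneg, hindbrain GLASTpos and spinal cord cells, with edgeR adjusted p of 0.029, 2e-04 and 0.00068. S100a4, a calcium-binding protein of motile cells, was at a mean of 2.20 CPM in hindbrain GLASTpos controls, 87 at E1 and 207 at E4, log2 fold changes of 5.24 ± 0.98 and 6.5 ± 1.02.

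At E4 in spinal cord Arg1, which encodes arginase 1, had a mean of 127 CPM and 0 counts in controls (edgeR adjusted p = 5.4e-05). That mean rests on replicate 2, since all 19 genes of the list together summed to at most 111 CPM in each other E4 library. Of the 15 called there, 7 were left without replicate 2, namely Arg1, Saa3, Cd14, F13a1, Ly6c2, Plac8 and S100a4, which are named after their values were seen. Cd163, a scavenger receptor of perivascular macrophages, went the other way, from a mean of 2.56 CPM in spinal cord controls to 0 counts at E1 and in chronic disease (edgeR adjusted p = 0.012 and 0.0017). The fitted medians of this list were 2.99, 2.63 and 2.13 in hindbrain GLASTneg, 4.27, 3.46 and 1.99 in hindbrain GLASTpos and 2.17, 5.67 (4.07 without replicate 2) and 3.84 in spinal cord cells. They rest on 9 to 14 of 19 genes with 0 counts in 1 of the groups. With these at their bound the medians were 0.09, 0.36 and 0.00, then 0.63, 0.69 and 0.00, then 0.00, 2.44 and -0.80.

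Pan-leukocyte, T cell and neutrophil genes were called higher beside the monocyte and macrophage members in some populations, whereas no B cell marker was called in any. Among hindbrain GLASTpos libraries 6, 4 and 3 of 10 pan-leukocyte genes were called, with Ptprc, the gene of the CD45 gate, at 0 counts in controls and means of 52.9, 38.6 and 10.0 CPM over the stages. Cd52, a surface glycoprotein of lymphocytes and monocytes, was called in hindbrain GLASTneg cells at E1 and E4, by 3.80 ± 0.98 each. Among spinal cord libraries 6, 10 and 4 of 10 were called, with 7 at E4 without replicate 2. The summed CPM of the list was 31.6, 116, 142 and 107 in hindbrain GLASTneg, 19.6, 302, 292 and 86.4 in hindbrain GLASTpos and 6.99, 68.9, 326 and 50.7 in spinal cord cells over C, E1, E4 and Ech, where the median of the E4 libraries other than replicate 2 was 98.4.

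T cell genes summed to 2.07, 79.6, 117 and 24 CPM in hindbrain GLASTpos cells, with 3, 4 and 1 of 8 called, and to 1.31, 12, 23.2 and 7.58 CPM in spinal cord (18 CPM at E4 without replicate 2), with 1, 4 and 2. Neutrophil genes summed to 0.229, 8.81, 116 and 9.48 CPM in spinal cord, and to 18.4 CPM at E4 without replicate 2, where S100a8 and S100a9 were called at each stage. The part of these cells in the member values was not tested. No T cell or neutrophil marker was called in hindbrain GLASTneg cells. Of the dendritic cell markers, Flt3 was called lower in spinal cord at E1 and E4 (edgeR adjusted p = 0.0083 and 0.0013) and Zbtb46 at E4 and in chronic disease (-2.32 ± 0.64 and -1.90 ± 0.62). Of 12 phagocyte activation genes, 0, 1 and 1 were called higher in hindbrain GLASTneg, 1, 3 and 1 in hindbrain GLASTpos and 2, 6 and 6 in spinal cord cells, where 1, 2 and 2 were called lower. Those lower were Apoe, an apolipoprotein that astrocytes also make, at each stage (-1.29 ± 0.35, -2.89 ± 0.35 and -2.56 ± 0.34) and Axl, a receptor kinase, at E4 and in chronic disease (-1.38 ± 0.41 and -2.32 ± 0.42). Clec7a, a receptor for β-glucans, had 0 counts in all controls and was called in hindbrain GLASTneg cells at E4 and in chronic disease (means of 5.58 and 6.99 CPM) and at each stage in hindbrain GLASTpos and spinal cord cells. Of 9 astrocyte markers, 3, 8 and 8 were called lower in spinal cord and 0 in the hindbrain populations, and of 7 oligodendrocyte markers 2, 6 and 0 were called higher in spinal cord.

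In the naive mice of the subtype experiment the labels of the isolated groups are in doubt, since 12 of the 15 libraries are named differently in the study's own table of normalized values. A sum of Hox genes, which mark spinal cord, was 739 CPM in the libraries labelled hindbrain GLASTneg and 3.30 CPM in those labelled spinal cord. The study's normalized values name libraries labelled hindbrain GLASTneg as spinal cord and those labelled spinal cord as hindbrain GLASTpos. They name those labelled hindbrain GLASTpos as forebrain GLASTpos and those labelled forebrain GLASTpos as hindbrain GLASTneg. Only libraries labelled forebrain GLASTneg keep their name. The Hox sum of 739 CPM thus belongs to libraries named spinal cord there. The groups are named below as labelled, and no region is read from them. Homeostatic members led in each isolated group, with shares of 76.6%, 76.4%, 72.2%, 83.1% and 86.8% in the libraries labelled forebrain GLASTneg, forebrain GLASTpos, hindbrain GLASTneg, hindbrain GLASTpos and spinal cord.

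P2ry12 had counts in all 15 isolated libraries, from 3.07 CPM to 35.7 CPM. It was highest in the libraries labelled hindbrain GLASTpos (35.7, 21.1 and 16.6 CPM) and spinal cord (34.9, 20.3 and 19.6 CPM), which overlapped fully. Those labelled forebrain GLASTpos (12.4, 12.7 and 11.8 CPM) came next, followed by hindbrain GLASTneg (3.07, 10.2 and 14 CPM) and forebrain GLASTneg (11.7, 5.93 and 4.66 CPM), which overlapped. Ccr2 had 0 counts in all 15, which at 3 counts allows up to 2.44 to 6.99 CPM per library, and Fcgr2b was seen in 1 library only.

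Each isolated group was set against the average of the remaining isolated groups. The libraries labelled hindbrain GLASTpos were higher in Cx3cr1, at 38.2, 31.2 and 7.38 CPM (3.27 ± 0.86, edgeR adjusted p = 0.012), and in Csf1r, at 60.9, 50.1 and 12 CPM (2.36 ± 0.63, 0.014), 2 of 10 members against 1.39% of 14957 genes tested. Both calls were lost without replicate 1 or replicate 2 of that group, and neither was made by DESeq2. Tmem119 stood at 15.4, 15.6 and 2.77 CPM there, with 0 to 6.77 CPM in the other isolated libraries (edgeR adjusted p = 0.056). Cx3cr1 had 0 counts in all 3 libraries labelled hindbrain GLASTneg, the only member called lower there (edgeR adjusted p = 0.025; 1.58% of genes), and the call was lost without any 1 of them (edgeR adjusted p of 0.12, 0.11 and 0.09 without replicates 1, 2 and 3). The libraries labelled forebrain GLASTneg, forebrain GLASTpos and spinal cord had 0 members called by edgeR (0, 1 and 1 at an unadjusted p under 0.05; 0 with DESeq2), against 1.18%, 1.94% and 7.54% of genes.

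In the cultured astrocytes 8 members were called higher than in isolated astrocytes and P2ry12 lower, while Ccr2 was at or under the floor, with at most 1.19 CPM. They held 1.59, 1.83 and 7.41 CPM of P2ry12, and this was lower than in isolated astrocytes, at a log2 fold change of -1.91 ± 0.68 (edgeR adjusted p = 0.024; 8.38% of all 17126 genes tested were lower). Cx3cr1, in contrast, was at 144, 78 and 517 CPM, Csf1r at 78.4, 38.2 and 498 CPM, and Lyz2 at 153, 109 and 933 CPM. Replicate 3 was the highest for each of these genes. The log2 fold changes were 6.03 ± 0.51, 4.16 ± 0.45 and 6.34 ± 0.41, with edgeR adjusted p of 7.4e-13, 3.2e-10 and 8.1e-17.

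Aif1, at 27.4, 21.1 and 129 CPM, and Cd68, at 32.2, 15.9 and 55.3 CPM, were higher in culture too, by 7.18 ± 0.75 and 4.65 ± 0.69. Tmem119 (3.31 ± 0.89, edgeR adjusted p = 0.0032), Itgam (3.55 ± 0.96, 0.0033) and Fcgr2b (3.28 ± 1.18, 0.028) were called as well, where 23.3% of all genes were called higher and the median log2 fold change of all genes was 0.43. Fcgr2b reached only 1.80 CPM in culture and was lost without any 1 of the 3 cultured replicates, Itgam and Tmem119 without replicate 3, and P2ry12 without replicate 1 or 2. The homeostatic share in culture was 40.2% ± 4.53 (SD, n = 3), and 85.2% when Lyz2 was left out. The comparison joins neonatal with adult, cultured with sorted and C57BL/6J with FVB/N cells. Only the cultures had been given L929 cell-conditioned medium, and only the sorted cells had passed the CD11B and CD45 gate. These differences cannot be told apart.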

How the data were processed

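RNA was measured in 66 libraries of the EAE experiment and 18 of the subtype experiment, made with a kit for 3′ ends of mRNA (QuantSeq FWD) and read over 50 bases from 1 end. The deposited values are whole-number counts per gene. The authors mapped reads to GRCm38 with HISAT 0.1.5 and counted them with HTSeq 0.6.1p1 in union mode, so reads over overlapping genes are left out. The tables were analysed separately. Genes with a total count of 10 or more were scaled by TMM and tested with the edgeR 4.0.16 quasi-likelihood test (R 4.3.3), with Benjamini-Hochberg adjustment over all genes. Models of group means were fitted to the 66 EAE libraries, to the 15 isolated libraries and to all 18 subtype libraries. CPM of isolated libraries were scaled among those 15, and CPM of cultured libraries among all 18. Standard errors are the log2 fold change divided by the square root of its F. Depth was 1313682 to 4895220 counts in the EAE libraries and 416768 to 8188074 in the others. DESeq2 1.42.0, other filters and scalings and fits without single libraries, which kept the genes and dispersion trend of the full fit, were tried as alternatives. The fits were tested on simulated data.

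The members and lists were chosen with earlier results of these data known, and genes named beside the members were at most 4 per list and comparison, those of largest fold change among called genes, further list genes named after their values were seen, the near-copies Lyz1 and Fcgr3 (another item of the rule is not reported here), and the 5 genes ranked most like P2ry12 and Lyz2 in spinal cord. Labels list replicates as separate samples, and the pooling of up to 2 mice is from the study's methods. Same-numbered libraries did not deviate together (mean correlation -0.00119 against 0.000295 for other pairs in EAE, -0.00496 against 0.00248 in the subtypes), so replicate numbers were not used as pairs. Libraries of 1 stage that share a number in their titles had a mean correlation of 0.02 over 49 pairs, 3 of them over 0.1, against -0.003 for the other 314, and a block on that number was tried as an added alternative. E1 spinal cord replicate 1 is spinal cord by its title and hindbrain by another field, and the title was used. The study's normalized values of the subtypes served for library names alone. Levels and figures were made in Python 3.11.15 with pandas 2.3.3, numpy 2.4.6, matplotlib 3.10.9 and scipy 1.17.1. Intervals and floors cover counting error only.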

Additional observations from a re-analysis of the deposited data

Results flagged for a closer look

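A library stood far from the others of its group (Dixon's criterion at 95%) for 26 of 116 pairs of a member and a group with 4 to 6 libraries. A rate of 1 in 20 would give about 6. That rate assumes normally spread values and independent pairs, which low counts and shared libraries do not give, so no excess is read from it. Of the 26, 9 were in replicate 2 of the E4 spinal cord group. It held 16.6 CPM of Tmem119, 234 of Cx3cr1, 411 of Csf1r, 201 of Aif1, 519.8 of Itgam, 1382 of Lyz2, 58.4 of Ccr2, 33.7 of Fcgr2b and 53.0 of Cd68, and P2ry12, at 4.94 CPM, was the member that did not stand apart in it.

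In other spinal cord groups, Itgam stood apart in control replicate 1, at 7.44 CPM. At E1 replicate 2 stood apart for Cx3cr1 (34.2 CPM), Itgam (12.3 CPM) and Ccr2 (22.8 CPM), replicate 3 for Tmem119 (3.56 CPM) and replicate 4 for Lyz2 (30.1 CPM). In chronic disease replicate 1 did for Fcgr2b (79 CPM) and Ccr2 (4.00 CPM) and replicate 4 for P2ry12 (15.4 CPM).

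In hindbrain GLASTpos cells, control replicate 5 stood apart for Itgam (10.1 CPM) and control replicate 3 for Cd68 (2.94 CPM). At E1 replicate 4 did for Ccr2 (61.7 CPM) and replicate 6 for Cd68 (1.96 CPM). At E4 replicate 1 did for Ccr2 (70.2 CPM) and Aif1 (33.6 CPM) and replicate 6 for P2ry12 (19.7 CPM), and in chronic disease replicate 1 did for Ccr2 (4.98 CPM). No member had such a library in hindbrain GLASTneg cells.

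The change against controls differed between populations, by the edgeR test of the difference, for Itgam at E4 (spinal cord over hindbrain GLASTneg by 4.81 and over GLASTpos by 5.32 on the log2 scale), for Csf1r at E4 (over GLASTpos by 3.56), and for Fcgr2b at E4 (over GLASTpos by 4.67) and in chronic disease (over GLASTneg by 6.63 and over GLASTpos by 7.26). The E4 differences of Itgam and Csf1r were lost without E4 spinal cord replicate 2, and the E4 call of Fcgr2b in 14 of 22 fits that left out 1 library. Sizes for Fcgr2b are fitted against spinal cord controls without a count.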

How the results depend on the processing

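Scaling by RLE size factors moved no member test, count of calls or class level past its threshold or direction, scaling by library totals, run for class levels alone, moved none of those, and the genes with fewest counts set what depth limits: Tmem119, Cd68 and Ccr2 were at or below 3 counts in many libraries. The cause of a change under an alternative was not tested, except where fewer libraries entered.

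Without the low-count filter, members called rose from 1 to 3 for hindbrain GLASTneg E1, 0 to 2 for hindbrain GLASTneg chronic disease, 1 to 2 for hindbrain GLASTpos chronic disease, 0 to 1 for spinal cord against hindbrain GLASTneg controls, 1 to 4 for the E4 response of spinal cord against hindbrain GLASTneg, and 0 to 1 for the E1 response of spinal cord against hindbrain GLASTpos. With DESeq2 the same 6 counts were 3, 2, 2, 1, 3 and 1, hindbrain GLASTpos against GLASTneg controls had 1 in place of 0, and naive libraries labelled hindbrain GLASTpos 0 in place of 2. The filterByExpr filter gave 0 in place of 1 for naive libraries labelled hindbrain GLASTneg and 0 in place of 2 for those labelled hindbrain GLASTpos. Fits of 1 population alone called 4 members at E1 and 4 in chronic disease in hindbrain GLASTneg cells and 1 at E1 in spinal cord (3 in the joint fit). With the replicate number as a block, hindbrain GLASTpos chronic disease against E4 called 1 in place of 0, and Csf1r at E1 in hindbrain GLASTpos cells turned from -0.11 to 0.28. The block changed no other count by over 1.5 times, and 4 single-gene calls were lost and 1 gained under it.

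A block on the number that titles share between populations of a stage, added after seeing the data, gave 1 in place of 0 for spinal cord against hindbrain GLASTneg controls, 2 in place of 1 for spinal cord against hindbrain GLASTpos controls, 2 in place of 0 for hindbrain GLASTpos against GLASTneg controls, 1 in place of 0 for both E1 responses of spinal cord, 2 in place of 1 for its chronic response against hindbrain GLASTneg and 1 in place of 0 for the chronic response of hindbrain GLASTpos against GLASTneg.

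With libraries of sheet number 57 or more, spinal cord kept 5 control, 4 E1, 1 E4 and 4 chronic libraries. No count of calls is drawn from comparisons with the 1 E4 library. Ccr2 and Tmem119 then turned to -1.16 (from 0.94) and -0.12 (from 1.67) at E4 against E1, and Tmem119 to 1.58 (from -1.22) in chronic disease against E4. With 1 E4 library, whose spread is assumed to be that of other groups, these values cannot show whether results depend on the sheet number. All 5 controls but only 1 of 6 E4 libraries had a number of 57 or more, so stage and number are largely confounded.

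The homeostatic share with Csf1r, Aif1 and Itgam added to the homeostatic class was 67.3% at E1 and 57.2% at E4 in hindbrain GLASTneg cells, 39.4% and 45.4% in hindbrain GLASTpos cells, 45.2% and 41.1% in spinal cord and 55.7% in culture. Without Lyz2 it was 54.8% at E4 and 79.98% in chronic disease in hindbrain GLASTneg cells, 37.5% at E4 in spinal cord, 90.5%, 92.0% and 99.3% in naive libraries labelled hindbrain GLASTneg, hindbrain GLASTpos and spinal cord, and 85.2% in culture.

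Leaving out 1 library at a time gave these ranges of members called: 1 to 2 for hindbrain GLASTneg E4 (1 without control replicate 1, 4 or 5), 0 to 1 for hindbrain GLASTpos chronic disease against E4, 1 to 3 for spinal cord E1, 3 to 8 for spinal cord E4, 0 to 5 for spinal cord E4 against E1 and 0 to 5 for chronic disease against E4 there. For responses of spinal cord against hindbrain GLASTneg they were 0 to 2 at E4 and 0 to 1 in chronic disease, against hindbrain GLASTpos 0 to 3 at E4, and for spinal cord against hindbrain GLASTpos controls 1 to 2. For naive libraries labelled hindbrain GLASTneg they were 0 to 1, hindbrain GLASTpos 0 to 3 and spinal cord 0 to 1. The lowest spinal cord values at E4 and between stages were those without E4 replicate 2.

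Directions that changed under it belonged to members not called. Their log2 ranges were -0.00 to 1.06 for Tmem119 at E1 in hindbrain GLASTneg cells. Among hindbrain GLASTpos cells at E1 they were -2.88 to 0.74 for Cd68, -0.39 to 0.27 for Csf1r and -0.29 to 0.22 for P2ry12, at E4 -0.12 to 0.60 for Tmem119, and in chronic disease -0.04 to 2.52 for Cd68, -0.15 to 0.61 for Csf1r, -0.21 to 0.53 for P2ry12 and -1.16 to 0.05 for Tmem119. In spinal cord they were -0.98 to 0.29 for Cd68 and -0.01 to 0.81 for P2ry12 at E1, -0.17 to 0.68 for P2ry12 at E4 and -0.01 to 1.19 for Cd68 in chronic disease. For E4 against E1 there they were -0.47 to 0.22 for P2ry12, -1.18 to 2.46 for Ccr2 and -0.71 to 3.06 for Cx3cr1, and for chronic disease against E4 -2.48 to 0.64 for Cx3cr1 and -1.54 to 0.38 for Tmem119.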

Other observations

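Over the 22 spinal cord libraries of the disease experiment and the 10646 genes of 5 CPM or more on average, the genes whose CPM ranked most like Lyz2 were Ccl6, Cybb, Eif3f and Gatad2a (Spearman rho = 0.88 each) and Fgl2 (0.87). Cybb encodes the catalytic chain of the phagocyte oxidase and Ccl6 a chemokine of myeloid cells. Those most like P2ry12 were Rab11b and Atp5d (0.67 each), 9130221H12Rik (0.65), Isca1 (0.63) and Rpl10a-ps1 (0.62). Among members, rho was 0.23 for P2ry12 and Lyz2, 0.60 for Lyz2 and Itgam, and 0.37 each for P2ry12 with Tmem119 and with Cx3cr1. These are descriptions over libraries that share stage and depth, and many P2ry12 counts were near the floor.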
